A study of Mus musculus with 6 samples.

Results

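The levels of 10 genes were followed: the Notch effector repressors Hes1, Hes5, Hey1, Hey2 and Heyl, the Notch feedback gene Nrarp, the HES antagonist Hes6, and Rest, the repressor of neuronal genes, with its corepressors Rcor1 and Rcor2. They were chosen by symbol, as every probe set annotated to exactly 1 of these names, which gave 20 probe sets of 45037 and 10 genes of 18193. All 10 genes were measured. The cells came from mice whose lung tumours carry the Rb/p53/p130 triple knockout, a model of small cell lung cancer, on a mixed C57BL/6;129Sv/J background. Tumours were taken 6 to 7 months after Adeno-Cre infection, with no treatment. From each of 3 mice (1127, 920 and 0107) cells were stained on their surface for CD24, CD44 and EpCAM and sorted as tumour-propagating cells (TPCs) or as non-TPCs, 1 array per fraction and mouse, so both fractions come from animals with the same engineered deletions. What share of the sorted cells had recombined was not measured. The promoter that drove Cre, the ages, the sort gates and whether tumours of a mouse were pooled were not given in the sources used here.

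HES and HEY proteins are basic helix-loop-helix repressors. When a Notch receptor is cleaved, its intracellular part joins RBPJ on DNA and switches on Hes1, Hes5, the HEY genes and Nrarp, and the repressors then hold down proneural genes such as the Neurog and Neurod families. Hes6 is itself expressed in neural and neuroendocrine cells and counters HES1, while NRARP dampens Notch signalling. REST binds a motif beside neuronal genes in cells that are not neurons and recruits the RCOR scaffolds with the demethylase KDM1A and histone deacetylases. Small cell lung cancer is neuroendocrine, and Notch activity and REST are known in this tumour for marking its less neuroendocrine cells.

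Upstream windows of 6 of the 10 genes were found in the RefSeq promoter table of GRCm38.p6, 7 windows in all because Hes6 has a pair of start sites. Hes1, Hey1, Heyl and Rest had no entry. Each window holds 250 bases before the start and 50 from it, and position 0 is the first transcribed base. They were searched on both strands for an RBPJ-type word (GTGGGAA), an N box bound by HES proteins (CACNAG), an E box (CACGTG) and a class C site (CACGCG). None of the matches in the windows overlapped. The Hes5 and Hey2 windows are shown because both hold a pair of RBPJ-type words, and the first Hes6 window because it has N boxes but no RBPJ-type word. Capitals mark the matched words, which are RBPJ-type in Hes5 and Hey2 and N boxes in Hes6.
Hes5: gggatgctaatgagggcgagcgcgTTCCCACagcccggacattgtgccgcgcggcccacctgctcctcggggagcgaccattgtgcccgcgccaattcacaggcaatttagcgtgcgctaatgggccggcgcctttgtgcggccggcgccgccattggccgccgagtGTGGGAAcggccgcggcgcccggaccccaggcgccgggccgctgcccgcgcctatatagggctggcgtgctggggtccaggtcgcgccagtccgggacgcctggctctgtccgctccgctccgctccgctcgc
Hey2: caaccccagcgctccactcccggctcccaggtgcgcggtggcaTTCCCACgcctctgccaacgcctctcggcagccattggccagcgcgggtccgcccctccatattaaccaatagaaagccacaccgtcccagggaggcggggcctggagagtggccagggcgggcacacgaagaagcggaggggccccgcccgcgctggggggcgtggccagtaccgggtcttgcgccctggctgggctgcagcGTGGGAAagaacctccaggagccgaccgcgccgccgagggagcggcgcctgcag
Hes6: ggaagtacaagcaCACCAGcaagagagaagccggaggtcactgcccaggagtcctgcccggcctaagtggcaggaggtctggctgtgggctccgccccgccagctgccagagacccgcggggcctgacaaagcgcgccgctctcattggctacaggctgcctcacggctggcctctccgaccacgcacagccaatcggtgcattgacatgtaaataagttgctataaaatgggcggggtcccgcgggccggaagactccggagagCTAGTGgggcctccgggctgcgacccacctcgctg
The Hes5 window lies at chr4:154960673-154960972 on the plus strand, the Hey2 window at chr10:30842734-30843033 on the minus strand and the Hes6 window at chr1:91413173-91413472 on the minus strand. In Hes5 the words begin at -226 and -83, and in Hey2 at -207 and -4. An RBPJ-type word occurs in 6.38% of the 32851 windows of the table, and 0.256% hold 2 or more. The Hes6 N boxes begin at -237 and 15, and 42.5% of all windows hold an N box and 11.3% hold 2 or more. The second Hes6 window and the Rcor1 window had no match to any of the 4 words. Nrarp had 2 N boxes and 1 E box, and Rcor2 had 1 E box and 1 class C site. An E box occurs in 7.15% of all windows and a class C site in 9.27%. Matches are descriptions of these letters and show no binding.

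**Figure D1:**
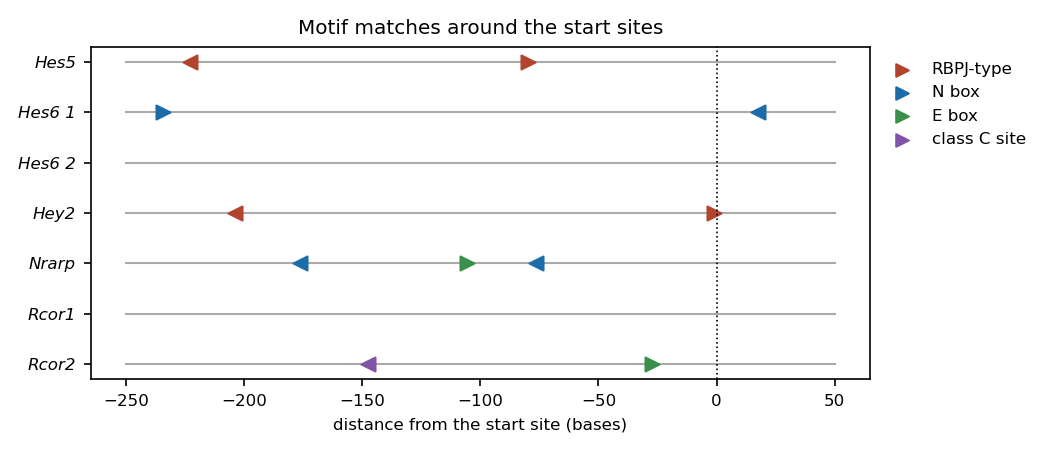
Motif matches in the 7 promoter windows of 6 genes, by distance from the start site in bases. Arrowheads point along the strand of the match and colours name the motif. Only Hes5 and Hey2 hold RBPJ-type words, 2 each.

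Levels are RMA signals on a log2 scale, and every difference is TPC minus non-TPC. Unless a probe set is named, a gene is represented by its brightest probe set. Markers of the labelled tumour type were present. The mean level of 17 measured neuroendocrine genes lay between 9.68 and 10.44 in all 6 arrays, where the median gene stood at 6.91. Of these genes 16 lay above the median gene level. Chga, a granule protein with the largest difference of the list, averaged 11.32 in TPCs and 10.49 in non-TPCs. Its differences were 0.69, -0.04 and 1.84 in mice 1127, 920 and 0107 (limma adjusted p = 0.873, or 0.545 with each mouse as a replicate block). The median difference of the list was 0.18. In every mouse 6 of the 17 were higher in TPCs and 0 lower, where 19.7% and 13.8% of all genes were.

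None of the 10 genes passed an adjusted p of 0.05 in limma, where 0.0605% of all genes did, all lower in TPCs. The smallest adjusted p of a member was 0.763, and with each mouse as a replicate block it was 0.349, where 0.0715% of genes passed. At an unadjusted p under 0.05 there was 1 of 10 members (Rest) against 6.48% of genes, and with the replicate block 3 of 10 (Hes1, Rest and Rcor1) against 9.85%. Hes6 and Rcor1, 2 of 10, were higher in TPCs of every mouse, where 19.7% of genes were. Hes1, Hey2 and Rest, 3 of 10, were lower in every mouse, where 13.8% of genes were. The median difference of the 10 was -0.05, against 0.04 for all genes. With 3 arrays per fraction, the intervals leave room for differences that the test could not call.

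**Figure D2:**
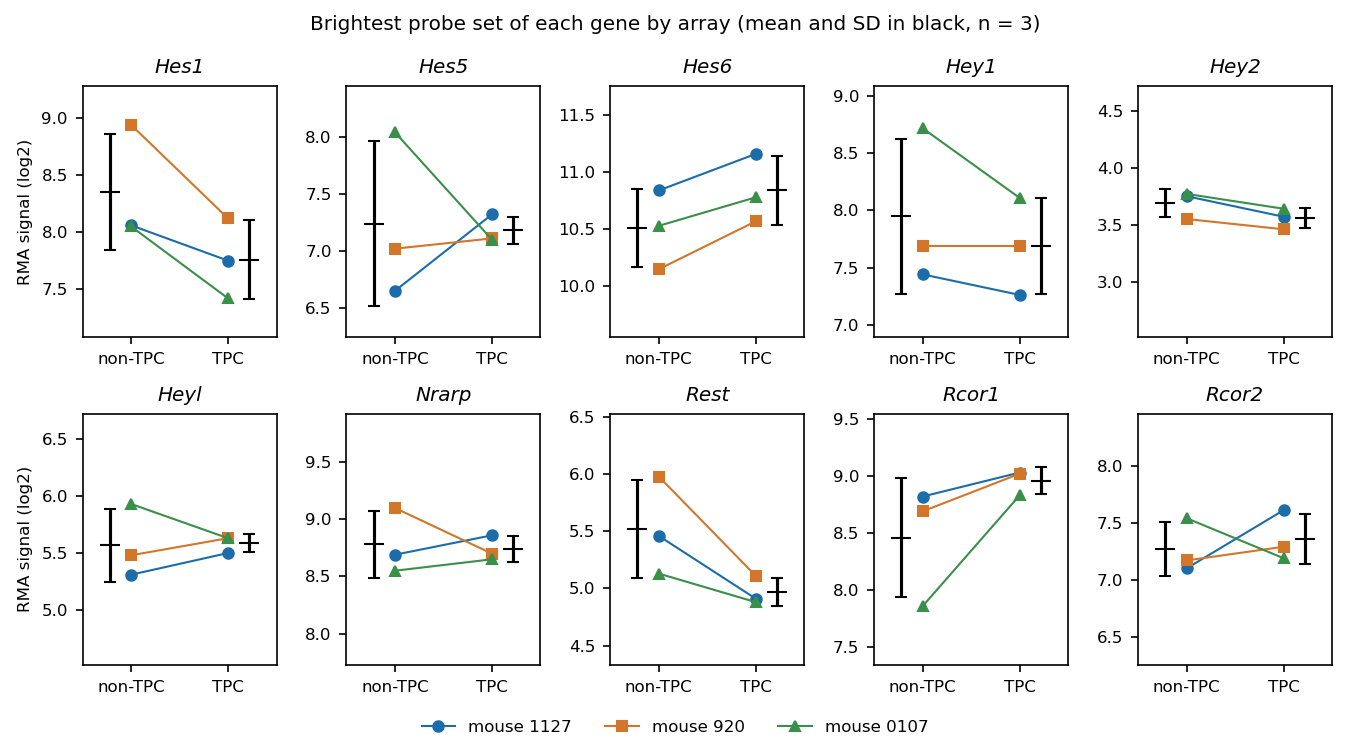
RMA signal (log2) of the brightest probe set of each gene in non-TPC and TPC arrays, with lines joining the fractions of a mouse and the mean and SD (n = 3) in black. Every panel spans the same log2 range. In all 3 mice Hes1 and Rest are lower and Hes6 and Rcor1 higher at the TPC end of the line, while the lines of Hes5 cross.

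Hes1, a Notch-induced repressor of neuroendocrine differentiation in the lung, was lower in the TPCs of each mouse, without passing the test. Its signal in TPCs was 7.75 in mouse 1127, 8.12 in mouse 920 and 7.42 in mouse 0107, and in the non-TPCs of the same mice it was 8.06, 8.94 and 8.05. The fractions overlapped, because the TPCs of mouse 920 lay above the non-TPCs of the other mice, and within a mouse the TPC value was always the lower one. The differences were -0.31, -0.82 and -0.63. On average Hes1 differed by -0.59 (SE 0.30, 95% confidence interval -1.30 to 0.13, limma adjusted p = 0.836), a 1.50-fold lower signal in TPCs, and 5.73% of genes had a lower difference. With the replicate block the interval was -0.98 to -0.19 (adjusted p = 0.349). Without mouse 920’s non-TPCs the difference was -0.29. A single probe set measures Hes1.

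Hes5, the Notch effector best known in neural progenitors, differed in sign between mice. It was at 7.32, 7.11 and 7.10 in TPCs of mice 1127, 920 and 0107 and at 6.65, 7.02 and 8.04 in their non-TPCs. The TPC arrays were close together (SD 0.12) and the non-TPC arrays spread widely (SD 0.72), with mouse 0107 highest and mouse 1127 lowest. The differences were 0.67, 0.09 and -0.94, and their mean was -0.06 (interval -0.89 to 0.77, limma adjusted p = 0.981). The second Hes5 probe set repeated the pattern at 0.61, 0.33 and -1.87, and the 2 sets correlated at 0.97 over the 6 arrays. Without mouse 0107’s non-TPCs the Hes5 difference was 0.34. With 1 array per fraction and mouse, a difference between mice could not be tested.

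Hes6, the antagonist of HES1 and by background a neuroendocrine gene, was higher in the TPCs of each mouse, without passing the test. Its signal was 11.16, 10.57 and 10.78 in TPCs of mice 1127, 920 and 0107 and 10.84, 10.15 and 10.53 in non-TPCs. The fractions overlapped across mice, and TPCs were higher within each, by 0.32, 0.42 and 0.25. The mean difference was 0.33 (SE 0.23, interval -0.23 to 0.88, limma adjusted p = 0.886), a 1.25-fold higher signal that did not pass. With the replicate block the SE was 0.13 and the interval -0.00 to 0.65 (limma adjusted p = 0.51). The second probe set was at 8.18, 7.90 and 7.23 in the TPCs and 7.72, 7.31 and 7.18 in the non-TPCs of those mice, again higher in each, by 0.46, 0.59 and 0.05. On this set mouse 0107 was lowest in both fractions. The difference was 0.15 without mouse 920’s non-TPCs and 0.17 without mouse 1127’s TPCs. The brightest Hes6 set carries the suffix _x_at, which on this type of array marks probes that can match other sequences, and the second set does not. The second Hes5 set carries that suffix as well.

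Hey1, a HEY repressor expressed in vessels as well as in epithelium, was highest in mouse 0107. In TPCs it was at 7.26, 7.69 and 8.11 in mice 1127, 920 and 0107, and in non-TPCs at 7.44, 7.69 and 8.72. Both fractions of mouse 0107 lay above every array of the other mice. The averages of the mice spanned 1.06, and the fractions differed by -0.26 (interval -1.16 to 0.63, limma adjusted p = 0.933), from -0.18, 0.00 and -0.61 within mice. In 9 of the 10 members, all but Rest, the averages of the mice spanned more than the fractions differed. A span over several averages tends to be wider than a single difference, and the share of all genes was not computed. The count therefore says nothing particular about these members. Without mouse 0107’s non-TPCs the mean Hey1 difference was 0.12.

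Hey2 and Heyl, which are best known in the heart, vessels and mural cells, were dim. Hey2 lay between 3.46 and 3.77 in all 6 arrays, below the first quartile of every array, which ranged from 4.52 to 4.65. Its differences were -0.18, -0.09 and -0.13, and their mean was -0.13 (limma adjusted p = 0.912). Whether signals this low rise above background was not tested. The brightest Heyl probe set ran from 5.31 to 5.93 and differed by 0.01 (interval -0.43 to 0.46, adjusted p = 0.991). Its 3 probe sets did not follow each other, with correlations of 0.18, -0.03 and -0.49 over the 6 arrays.

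Nrarp, the feedback inhibitor that Notch induces, had a mean difference near 0. It was at 8.86, 8.70 and 8.65 in TPCs of mice 1127, 920 and 0107 and at 8.69, 9.10 and 8.55 in non-TPCs. The non-TPCs of mouse 920 were highest, and the fractions overlapped. The mean difference was -0.04 (interval -0.47 to 0.38, limma adjusted p = 0.974). The second probe set differed by 0.15, so the pair did not share a sign.

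Rest was dim and lower in TPCs of each mouse on its brightest probe set. That set gave 4.91, 5.11 and 4.88 in TPCs of mice 1127, 920 and 0107 and 5.46, 5.98 and 5.13 in non-TPCs. The fractions did not overlap, since the lowest non-TPC array stood just above the highest TPC array, as in 5.91% of all genes in that direction. The difference was -0.56 (SE 0.23, interval -1.10 to -0.01, limma adjusted p = 0.763), a 1.47-fold lower signal, and -0.55, -0.87 and -0.25 within mice. With the replicate block the adjusted p was 0.39. Without mouse 920’s non-TPCs the difference was -0.33. The other 3 Rest probe sets lay below the first quartile of the arrays on average and differed by 0.02, -0.23 and -0.23, and the mean of all 4 differed by -0.25. Of the 4 sets, 2 had fractions that did not overlap.

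Rcor1, the CoREST scaffold that joins REST to KDM1A and histone deacetylases, was above the non-TPC level in every mouse on each of its 3 probe sets. The brightest gave 9.03, 9.02 and 8.83 in TPCs of mice 1127, 920 and 0107 and 8.82, 8.69 and 7.86 in non-TPCs. The fractions did not overlap, which held for 6.71% of genes in that direction, and the non-TPCs of mouse 0107 stood well below the rest. The differences were 0.21, 0.33 and 0.96, with a mean of 0.50 (SE 0.26, interval -0.13 to 1.13, limma adjusted p = 0.849), a 1.41-fold higher signal that did not pass. The second set was at 8.76, 8.42 and 7.73 in TPCs and 8.19, 8.22 and 7.03 in non-TPCs. The third was at 7.79, 8.02 and 7.58 in TPCs and 7.67, 7.95 and 6.95 in non-TPCs. In both, too, the non-TPCs of mouse 0107 were the lowest array. These sets differed by 0.49 and 0.27, both with overlap of the fractions, and the 3 correlated at 0.88 to 0.90. The brightest set carries the suffix _s_at, and whether its probes match other transcripts was not tested. With the replicate block the adjusted p was 0.5. Without mouse 0107’s non-TPCs the difference was 0.20, and without both arrays of that mouse 0.27.

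Rcor2, a paralogue of Rcor1 known from neural and stem cells, did not share that direction in every mouse. It was at 7.61, 7.29 and 7.19 in TPCs of mice 1127, 920 and 0107 and at 7.10, 7.17 and 7.54 in non-TPCs. The differences of 0.51, 0.12 and -0.35 gave a mean of 0.09 (interval -0.35 to 0.53, limma adjusted p = 0.949), and the fractions overlapped.

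**Figure D3:**
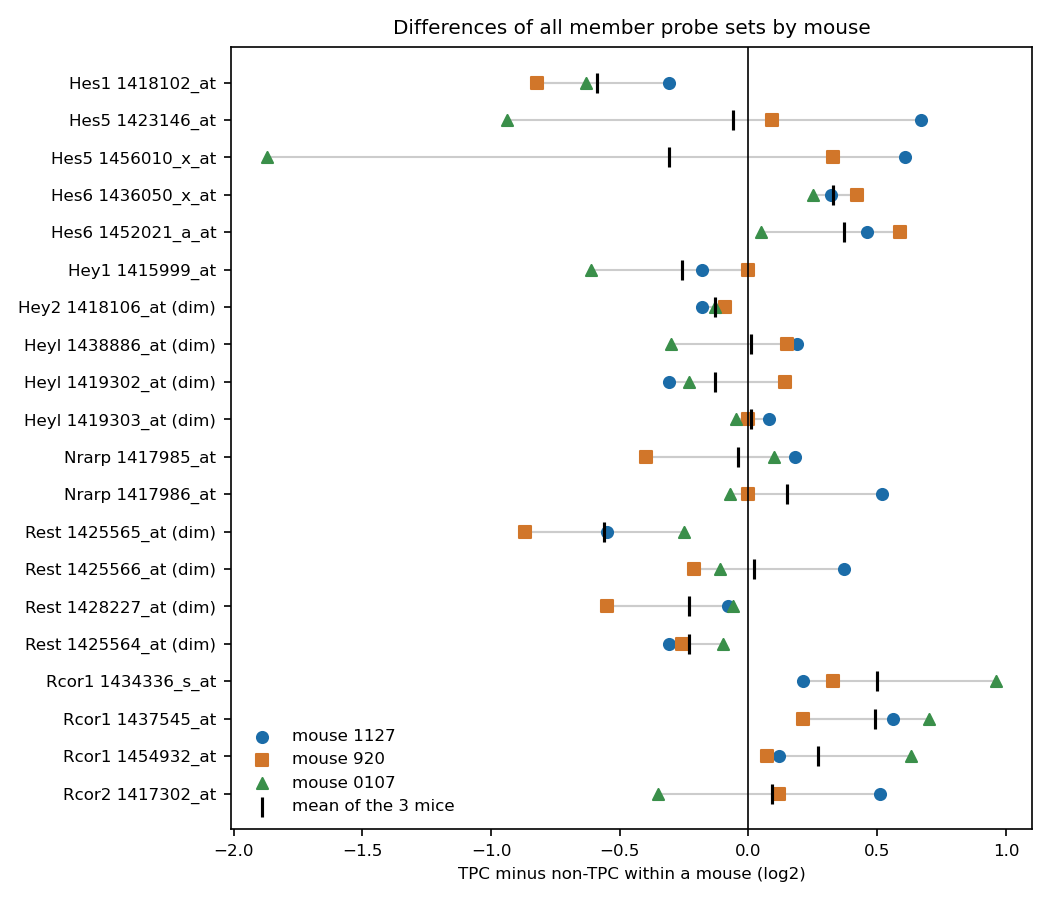
Difference of TPC minus non-TPC (log2) within each mouse for the 20 probe sets, with the mean of the 3 mice as a black bar. Sets marked dim have a mean at or below the median probe set, 6.04. All 3 Rcor1 sets and both Hes6 sets lie above 0 in every mouse, and the Hes5 sets span both sides.

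Over all 20 probe sets, adjusted over 45037, 0 passed in limma (0.0244% of all probe sets did) and 1 had an unadjusted p under 0.05, the brightest Rest set, where 5.46% of all did. With the replicate block 0 passed (0.02% of all did) and 5 had an unadjusted p under 0.05, against 8.81% of all probe sets. Of the 20, 5 were higher and 5 lower in TPCs of every mouse, where 19.3% and 12.5% of all probe sets were. The fractions did not overlap in 1 set that was higher, of Rcor1, and in 2 that were lower, of Rest, where 6.5% and 5.08% of all probe sets were so separated. The 5 higher ones were the Hes6 and Rcor1 sets. Probe sets of 1 gene measure the same RNA and are not separate evidence. All 5 lay above the median level, whereas 4 of the 5 lower ones, from Hey2 and Rest, lay at or below it.

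**Figure D4:**
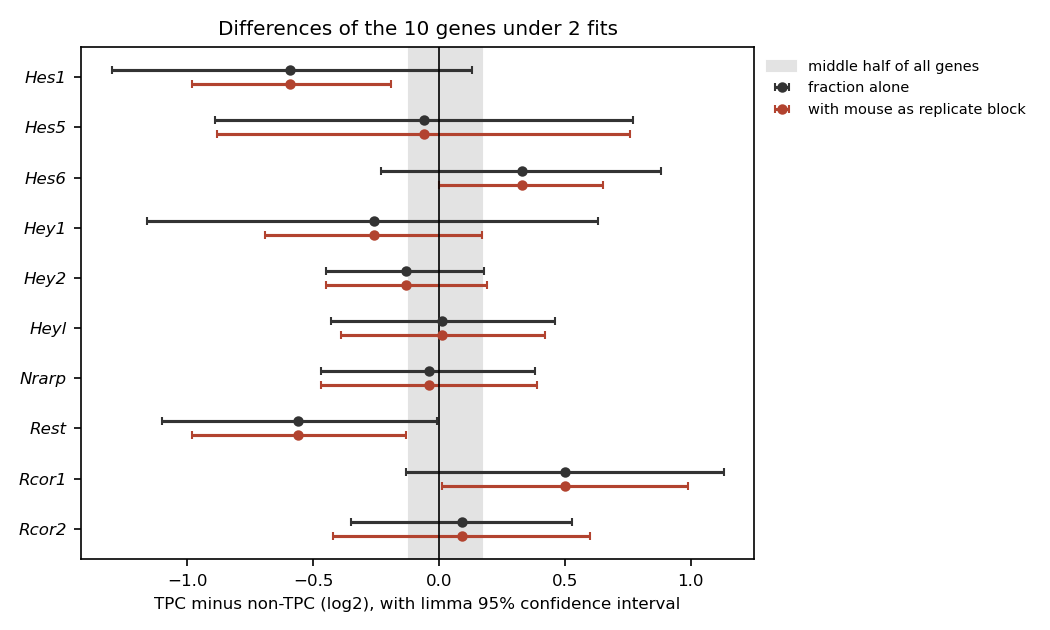
Mean TPC minus non-TPC difference (log2) of the 10 genes with limma 95% confidence intervals, from the fit with the fraction alone (black) and with the mouse as a replicate block (red). The grey band runs from the first to the third quartile of all genes, -0.12 to 0.17. The intervals of Hes1, Rest and Rcor1 exclude 0 with the block, and none of these passed after adjustment.

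The remaining genes of the Notch pathway were taken from written lists. Their counts stand against the shares of all genes, which were 6.48% at an unadjusted p under 0.05 in limma, 9.85% with the replicate block, 6.71% higher and 5.91% lower without overlap. Of 4 receptors, 0 passed in limma and 0 had an unadjusted p under 0.05, or 1 with the block. Notch2 was at 6.13, 6.06 and 5.09 in TPCs of mice 1127, 920 and 0107 and at 6.92, 6.83 and 6.05 in non-TPCs, lower in each by -0.78, -0.78 and -0.96 (mean -0.84, adjusted p = 0.773, or 0.158 with the block). Notch1, the receptor most studied in this cancer, differed by 0.01, Notch3 by 0.11 and Notch4, an endothelial receptor, by -0.56. All 4 receptors lay below the median gene level.

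Of 6 ligands, 0 passed in limma and 1, Jag1, had an unadjusted p under 0.05, or 2 with the block. Jag1 was lower in TPCs of each mouse without overlap, at 6.06, 5.75 and 5.58 against 6.74, 6.54 and 6.34 in mice 1127, 920 and 0107, and differed by -0.75 (limma adjusted p = 0.436, or 0.179 with the block). Dll3, an inhibitory ligand of neuroendocrine tumours, was at 9.46, 8.47 and 8.12 in TPCs and 8.47, 7.85 and 7.95 in non-TPCs of the same mice. It differed by 0.59, with the TPCs above in every mouse, though the fractions overlapped (limma adjusted p = 0.877, or 0.42 with the block). Among 24 genes of receptor processing and transcription 0 passed and 1, Lfng, had an unadjusted p under 0.05, or 1 with the block, with a median of 0.05. Lfng, a glycosyltransferase that modifies the receptors, differed by 0.49 (adjusted p = 0.557), and Dtx1, a ubiquitin ligase and Notch target, by 0.37.

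Corepressors and relatives of the HES proteins were 14 genes, with a median difference of 0.09. In limma 0 passed and 2, Tle2 and Tle4, had an unadjusted p under 0.05, or 1 gene with the block. Without overlap 2 were lower and 1 was higher. Tle2, a Groucho corepressor that HES proteins recruit, was at 7.50, 7.09 and 7.31 in TPCs of mice 1127, 920 and 0107 and 8.27, 8.54 and 7.70 in non-TPCs. The fractions did not overlap, and Tle2 differed by -0.87 (SE 0.24, limma adjusted p = 0.553). Tle4, of the same family, differed by -0.38, also without overlap, and Tle3 by -0.51 with overlap. Tle1 differed by 0.08. Bhlhe41, a repressor of the circadian clock, was the gene higher without overlap, dim at 4.72, 4.88 and 4.87 in TPCs and 4.54, 4.55 and 4.69 in non-TPCs of those mice (difference 0.23, limma adjusted p = 0.859).

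Proneural and cell cycle genes that HES1 is known to repress were measured for 13 genes, and 0 passed in limma or had an unadjusted p under 0.05 (median 0.12). With the replicate block 0 passed and 4 had an unadjusted p under 0.05, namely Neurog3, Insm1 and Cdkn1b, which were higher in TPCs, and Neurod4, which was lower. Neurog3, a proneural factor of endocrine progenitors, was at 10.35, 8.13 and 7.55 in TPCs of mice 1127, 920 and 0107 and at 9.52, 6.99 and 5.36 in non-TPCs. The mice differed more than the fractions. TPCs were higher in each by 0.83, 1.13 and 2.19, with a mean of 1.38 (SE 1.15, adjusted p = 0.899, or 0.239 with the block). Insm1, a neuroendocrine factor, differed by 0.75 and was also higher in 3 of 3 mice (limma adjusted p = 0.795, or 0.273 with the block). Neurod4 was lower in each, at -0.83, -0.27 and -1.58 in the same mice (mean -0.89, adjusted p = 0.9).

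Partners of REST other than the RCOR members were 15 genes, with a median of 0.07. In limma 0 passed and 2, Rcor3 and Ehmt1, had an unadjusted p under 0.05, or 3 genes with the block. Rcor3, the other CoREST paralogue, was higher in TPCs without overlap, at 9.39, 9.59 and 9.27 against 9.07, 9.17 and 8.98 in mice 1127, 920 and 0107 (difference 0.34, limma adjusted p = 0.766). Ehmt1, a histone methyltransferase, was lower without overlap (difference -0.44, adjusted p = 0.622). Kdm1a, the demethylase of the complex, differed by 1.04, 0.61 and -0.21 in the 3 mice, and Hdac2 by -0.27 on average.

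Neuronal genes described as REST targets were 26, of which 0 passed in limma and 1, Syn1, had an unadjusted p under 0.05, or 5 with the block. Their median difference was -0.03, with 0.16, 0.01 and 0.02 in mice 1127, 920 and 0107, close to the median of all genes. In every mouse 6 of 26 were higher and 3 of 26 lower in TPCs, which is near the shares of all genes (19.7% and 13.8%). Syn1, a synaptic vesicle protein, was dim and differed by 0.45 without overlap (adjusted p = 0.588). Gria2, a glutamate receptor subunit, was at 7.60, 5.97 and 7.56 in TPCs and 8.99, 6.84 and 8.91 in non-TPCs of those mice. It differed by -1.20 (adjusted p = 0.873, or 0.11 with the block), lower in each mouse. Mapk8ip1, a kinase scaffold of neurons and endocrine cells, differed by -0.47. The vesicle fusion regulator Cplx2 differed by 0.71. Cplx2 and Syn1 were higher and Gria2 and Mapk8ip1 lower in TPCs of 3 of 3 mice.

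**Figure D5:**
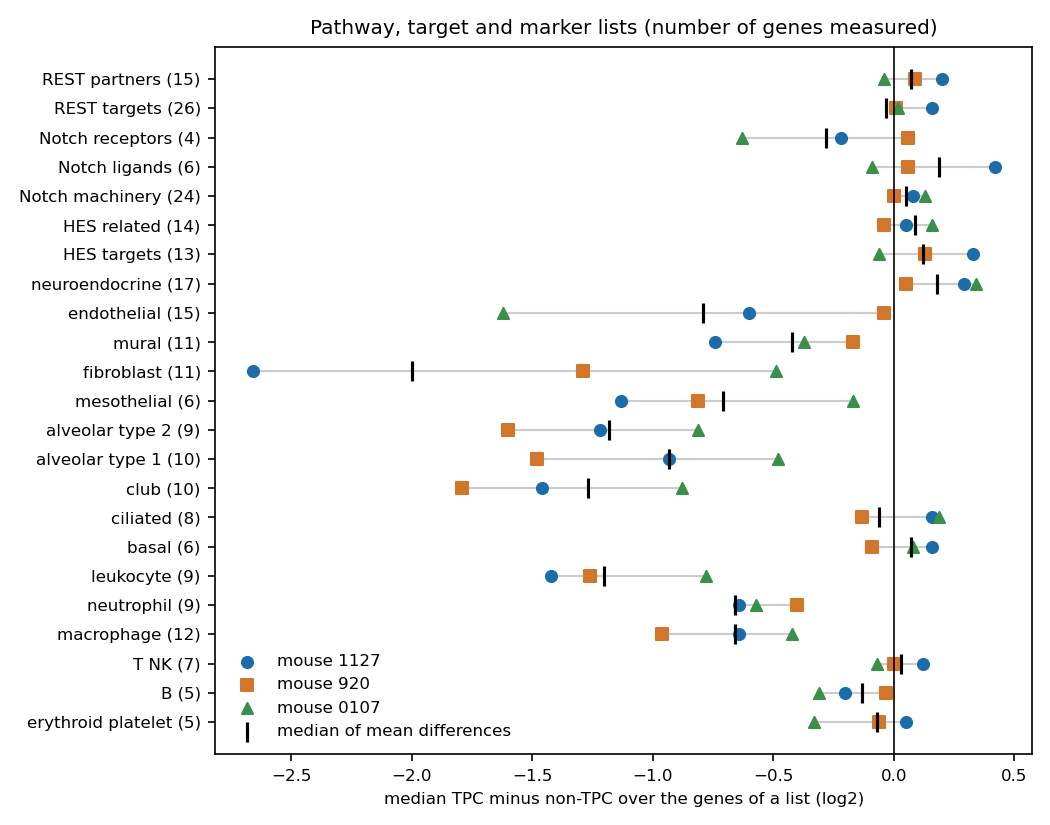
Median TPC minus non-TPC difference (log2) over the genes of each list, by mouse, with the median of the mean differences as a black bar and the number of measured genes in brackets. The REST target list lies between 0.01 and 0.16 in the 3 mice, while the marker lists of alveolar, club, fibroblast and myeloid cells lie below 0 in each.

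Markers of several other cell types were lower in TPCs, as were Hes1 and Rest. Fewer cells of a type and less RNA per cell cannot be told apart in sorted bulk samples. The counts lower in TPCs of every mouse that follow stand against 13.8% of all genes. The mean level of 10 club cell markers, a cell in which Hes1 is known to be active, ran from 8.59 to 9.29 in TPC arrays and 9.40 to 11.12 in non-TPC arrays. Of these markers 8 of 10 were lower in TPCs of every mouse. Of 9 alveolar type 2 markers 8 were lower in every mouse (7.03 to 7.26 against 8.33 to 9.14), and of 10 alveolar type 1 markers 5 (6.83 to 7.07 against 7.75 to 8.29). The counts were 9 of 11 for fibroblast markers (5.79 to 5.98 against 6.80 to 9.23) and 7 of 9 for leukocyte markers (6.72 to 7.33 against 7.41 to 8.23). For macrophage markers the count was 10 of 12 (6.61 to 7.29 against 7.40 to 8.21), for neutrophil markers 6 of 9 (5.32 to 5.54 against 6.39 to 6.71), and for mesothelial markers 5 of 6 (4.66 to 4.92 against 5.95 to 6.11). Past the limma test, which 0.0605% of all genes passed, were 2 alveolar type 2 markers, 1 neutrophil and 1 mesothelial marker, all lower. None of the other markers listed passed it. The replicate block, with which 0.0715% of all genes passed, changed these calls. With it Sftpa1 (alveolar type 2), Gpm6a (mesothelial) and Bpifa1 (club) passed, each at a limma adjusted p of 0.0286, and Lcp1 (leukocyte) at 0.0333, while Sftpc (alveolar type 2) and S100a9 (neutrophil) did not, at 0.051 and 0.0709. No RMA value is at 0, the lowest in the table being 2.70. The lists did not share 1 order over the mice. The medians of the club list were -1.46, -1.79 and -0.88 in mice 1127, 920 and 0107, and those of the alveolar and macrophage lists were also lowest in mouse 920. Those of the fibroblast list were -2.66, -1.29 and -0.49, and the leukocyte, mesothelial and neutrophil lists were also lowest in mouse 1127. Hes1 and Rest had their largest difference in mouse 920, but the smallest was in mouse 1127 for Hes1 and in mouse 0107 for Rest and for the club list. The part of these cells in the values of Hes1 and Rest was not tested.

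Vascular markers are given here for the HEY genes, which are known in vessels. Of 15 endothelial markers 7 were lower in TPCs of every mouse, where 13.8% of all genes were. The list means were 5.56 to 5.60 in TPC arrays and 5.68 to 7.28 in non-TPC arrays. The median differences of the endothelial markers were -0.60, -0.04 and -1.62 in mice 1127, 920 and 0107, where Hey1 differed by -0.18, 0.00 and -0.61. Of 11 mural markers 7 were lower in every mouse (5.52 to 5.61 against 5.98 to 6.84), with medians of -0.74, -0.17 and -0.37 in those mice, an order that Hey1 did not have. In TPCs Hey1 was highest in mouse 0107, at 8.11. Only 4 of the 15 endothelial markers lay above the median gene level. A list mean of mostly dim signals cannot show whether the TPC arrays held equal shares of endothelial cells. The part of vascular cells in Hey1 was not tested. Lists of ciliated (median -0.06), basal (0.07), T and NK (0.03), B (-0.13), and erythroid and platelet genes (-0.07) had between 0 and 1 members lower in every mouse.

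The non-TPC array of mouse 0107 held the highest Hes5 and Hey1 and the lowest Rcor1 of the 6 arrays. It also had the lowest Epcam, at 9.98. Epcam was low in both fractions of mouse 0107, with 11.57 in its TPCs, where the arrays of the other mice ranged from 12.91 to 13.35. The neuronal factor Neurod1 differed by -5.00 between the fractions of mouse 0107, against 0.33 and -0.04 in mice 1127 and 920. The part of the non-TPC array of mouse 0107 in the means of Hes5, Hey1 and Rcor1 is given above by the values without it.

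Patterns over the 6 arrays were compared with 9095 or 9096 genes above the median level, as descriptions that share arrays and fractions. Hes1 was most like Ahr (Pearson r = 0.99), the aryl hydrocarbon receptor, then Scgb3a1 (0.98), a club cell secretory protein, and Prkci, Bmp5 and Lyz2 (0.97 each). It was least like Atp6v0e2 (-0.99), Timm17b and Tmod1 (both -0.98). Hes6 was most like Gng2 and Tomm7 (0.99), Hdac1, Tmem234 and Ipo13 (0.98), and least like the macrophage genes Mpeg1 and Chil3 (-0.99) and the complement gene C1qb (-0.98).

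Rest was most like Slpi (0.9983), a secreted protease inhibitor of airways, Ager (0.9982), the alveolar type 1 marker, and Sat1 (0.9952), Cramp1l and Gsta4 (0.99 each). It was least like Phyhipl (-0.99), Slc16a8 (-0.98) and Sptb (-0.97). Hey1, the HEY gene with the highest mean signal, was most like Lars, Prxl2b, Socs6, Klhl24 and Neurod4 (0.99 each) and least like Ubn1 (-0.9988), Dmpk (-0.9978) and Fkbp2 (-0.9964). Over 6 arrays and this many genes these correlations carry no test.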

How the data were processed

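RNA of 6 sorted samples was hybridised to Affymetrix arrays after labelling with the WT Plus kit, per the labels' protocols. That kit serves whole-transcript arrays, whereas the probe annotation is that of an array with probes near the 3' end of transcripts, and what this does to the signals was not tested. The authors deposited log2 signals per probe set, and per the submitters' processing notes the method was RMA. RMA in general corrects background, equalises the arrays by quantiles and combines probes. The log2 base was read from the range, 2.70 to 14.81. The version, the probe definition and the build were not given in the sources used here. No read depth exists for arrays, and 3 per fraction limit the precision.

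Of 45101 probe sets, 64 controls were left out and 34945 had 1 gene symbol, updated through Entrez to RefSeq GRCm38.p6 where possible. A gene was its probe set with the highest mean. Fractions, taken from sample titles, were compared in R 4.3.3 with limma 3.58.1 (lmFit, eBayes, two-sided, fraction alone), with Benjamini-Hochberg adjustment over 18193 genes or 45037 probe sets and a threshold of 0.05. The procedure was run on simulated arrays without mouse pairing, with added changes larger than any member difference. Those runs do not show whether differences as small as those of the members would be called. The numbers pair the samples because both fractions of a number come from the same mouse. Deviations from the mean of the fraction correlated at 0.30, 0.46 and 0.36 between the paired arrays of mice 1127, 920 and 0107. Other pairs were at -0.08 or less, but centring on that mean pushes them below 0 when the paired ones are above it. Because the samples are paired, a fit with each mouse as a replicate block was run too. Alternatives were a random block, leaving out mice and arrays, a filter at the median level, median centring, a second quantile normalisation, a variance trend, and other choices of probe set.

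The members and lists were chosen with earlier results of these data known. All members are named, with the 4 genes of smallest p per list as candidates for naming, and, for Hes1, Hes6, Rest and the brightest HEY gene, the 5 most and 3 least correlated genes above the median level. Tle1, Chga and Neurod1 lie outside that rule and were chosen with their values in view. Cdkn1b lies outside it too and was named for its unadjusted p under 0.05 in limma with the replicate block. Of 271 list symbols 252 were matched, and the others were not analysed here.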

Additional observations from a re-analysis of the deposited data

How the results depend on the processing

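No member and no member probe set was called under any alternative run, with the counts at 0 throughout. With each mouse as a replicate block limma called 13 genes in place of 11 and no member. The count over all genes was 39 with the mouse as a random block and 4 with the mean of all probe sets, and it ran from 0 to 84 when 1 mouse or 1 array was left out. Hes1, Hey2 and Rest stayed negative and Hes6 and Rcor1 positive in every alternative run, with ranges of -0.76 to -0.29, -0.20 to -0.09, -0.75 to -0.25, 0.15 to 0.49 and 0.20 to 0.68. Each of these genes had the same sign in every mouse, so leaving out a whole mouse could not change it. The blocks, the variance trend and the filter leave a difference as it was, and Hes1 and Hey2 have 1 probe set each. In such runs the sign was fixed in advance, and only the remaining runs could have changed it. Rest, Hey2 and Heyl are below the filter at the median level and have no value there, nor have 4 of the 23 lists.

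The sign of 5 members changed under some alternatives, among them Hey1 with its difference of -0.26, and the cause was not tested. When 1 mouse or 1 array was left out, Hes5 ran from -0.43 to 0.38, Hey1 from -0.52 to 0.12, Heyl from -0.12 to 0.19, Nrarp from -0.16 to 0.14 and Rcor2 from -0.12 to 0.31. The positive values of Hes5 (0.34 and 0.38) and of Hey1 (0.12) came without the non-TPCs of mouse 0107, and 0.38 also without its TPCs. With the mean of all probe sets Heyl was -0.04 and Nrarp 0.05, and with the probe set of highest variance Nrarp was 0.15. Of 387 list medians, 30 moved by 1 SD between mice or more, 8 of them with the filter at the median level. Dim signal limits what can be said of Hey2, Heyl and Rest.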
